A study of Mus musculus with 3 samples.

Results

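Immediate-early transcripts were followed in single-cell RNA-Seq of naive and reperfused mouse lungs, 1 gene at a time, in every cell lineage that the libraries held. The 10 genes were Fos, Fosb, Jun, Junb, Jund, Egr1, Ier2, Atf3, Dusp1 and Zfp36, out of 32285 genes counted. They were taken by symbol from a list and not by a cut on their values, but the list was chosen with earlier results of these data known. Each symbol matched 1 gene identifier, so that all 10 could be followed. UMIs (unique molecular identifiers, each standing for 1 captured RNA molecule) were summed over the cells of a lineage in a library and given as CPM, counts per 1000000 UMIs of those cells.

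Immediate-early genes are transcribed within minutes of a stimulus without new protein synthesis, through kinases that act on factors already bound at their promoters. FOS and JUN proteins pair into the AP-1 transcription factor, while EGR1 and ATF3 are transcription factors of other families that the same signals induce. DUSP1 and ZFP36 act against the response: the first dephosphorylates MAP kinases such as p38 and JNK, and the second marks mRNAs with AU-rich elements for decay. In leukocytes these transcripts follow activation, adhesion and stress, and they are also known to respond when tissue is dissociated.

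The study transplanted left lungs of B6 CD45.2 donors into syngeneic B6 CD45.1 recipients, all given as C57BL/6J in the labels while the methods name B6.SJL-Ptprca Pepcb/BoyJ as the CD45.1 strain, after 60 minutes of cold storage at 4 °C and 45 minutes at 28 °C. The grafts were taken after 2 hours (2 h) or 3 days (3 d) of reperfusion, and the left lung of untreated C57BL/6J mice was the naive group. Each condition was 1 library made from pooled cells of 2 mice. A sort for CD45.1 cells is stated for all 3 libraries, and in the transplants it takes recipient cells, while a naive lung has no recipient. All lungs were digested with collagenase before the sort, and no undigested sample was measured. With 1 library per condition no test was possible, no p-value is given, and every interval below is a 95% Poisson interval, or its counterpart for a ratio, that covers counting error only.

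The libraries differed in depth. After filtering they held 2422 naive, 10283 2 h and 8324 3 d cells, with median totals of 7298.5, 878 and 5716.5 UMIs per cell. The libraries shared few cell barcodes, 8 between naive and 2 h, 1 between naive and 3 d and 23 between 2 h and 3 d. Marker genes named 9 lineages with at least 20 cells in 2 or more libraries: B-like, T-like, NK-like, neutrophil-like, monocyte-like, macrophage-like, dendritic-like, basophil- or mast-like and endothelial-like cells, written below without the suffix. Between 89.7% and 100% of each lineage's own markers had at least 1 UMI over its summed cells. That is a low bar, and it does not bear on whether the names are right. Basophils or mast cells numbered 20, 68 and 112 in the naive, 2 h and 3 d libraries. Dendritic cells numbered 22, 75 and 118. Their single cluster pooled conventional and plasmacytoid dendritic cells, with Cd209a and Mgl2 as well as Siglech and Ccr9 among its leading genes. Macrophages numbered 109 and 806 in the naive and 3 d libraries but 5 at 2 h, so that no macrophage level is given there. Nearly every cluster came from 1 library, and each lineage other than dendritic, basophil or mast and endothelial cells was made of different clusters in each library. Endothelial cells lack CD45 in general. They numbered 75, 30 and 116. Ptprc, the gene of CD45, stood at 45.7, 23.2 and 229.6 CPM in them against 278 to 2996 CPM in the other lineages. Cells with little CD45 transcript were thus still present after the sort. Whether the endothelial cells of the grafts came from the donor or the recipient was not tested.

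The promoters of 6 members whose levels differed in their order over the libraries are shown first. Fos, Junb and Dusp1 were highest at 2 h in every lineage, Jun in most, and Fosb and Atf3 in few. Each run is the 250 bases upstream of the RefSeq start in GRCm38.p6, read 5′ to 3′ on the gene's strand. Capitals mark TGACG, the core of the cyclic AMP response element (CRE), on either strand, the palindromic CRE TGACGTCA that contains it, and TGACATCA, a variant AP-1 site. The windows lie at chr12:85473640-85473889 on the plus strand for Fos and, on the minus strand, at chr7:19310046-19310295 for Fosb, chr4:95052223-95052472 for Jun, chr8:84978749-84978998 for Junb, chr1:191183334-191183583 for Atf3 and chr17:26508473-26508722 for Dusp1.
Fos: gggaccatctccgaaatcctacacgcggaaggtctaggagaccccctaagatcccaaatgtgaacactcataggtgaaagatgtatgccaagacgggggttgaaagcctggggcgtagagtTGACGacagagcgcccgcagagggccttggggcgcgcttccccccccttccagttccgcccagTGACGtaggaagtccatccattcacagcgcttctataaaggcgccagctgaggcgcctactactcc
Fosb: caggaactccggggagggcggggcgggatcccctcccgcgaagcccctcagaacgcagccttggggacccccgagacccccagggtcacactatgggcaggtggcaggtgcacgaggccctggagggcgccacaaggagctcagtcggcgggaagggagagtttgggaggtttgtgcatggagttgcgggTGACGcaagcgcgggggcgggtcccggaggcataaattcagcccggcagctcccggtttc
Jun: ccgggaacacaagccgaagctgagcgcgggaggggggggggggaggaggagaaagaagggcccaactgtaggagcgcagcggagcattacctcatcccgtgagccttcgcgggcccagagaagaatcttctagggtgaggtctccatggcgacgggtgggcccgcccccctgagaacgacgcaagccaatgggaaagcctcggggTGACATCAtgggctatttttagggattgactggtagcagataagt
Junb: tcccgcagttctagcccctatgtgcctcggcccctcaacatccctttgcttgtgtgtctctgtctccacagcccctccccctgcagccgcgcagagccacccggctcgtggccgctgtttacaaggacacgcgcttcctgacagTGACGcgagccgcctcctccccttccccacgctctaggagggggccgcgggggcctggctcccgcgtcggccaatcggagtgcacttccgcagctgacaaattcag
Atf3: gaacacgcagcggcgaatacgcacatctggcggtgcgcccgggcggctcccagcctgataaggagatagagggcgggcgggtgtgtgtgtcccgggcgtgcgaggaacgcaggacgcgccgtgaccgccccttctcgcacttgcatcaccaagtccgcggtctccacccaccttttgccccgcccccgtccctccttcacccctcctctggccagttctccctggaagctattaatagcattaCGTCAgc
Dusp1: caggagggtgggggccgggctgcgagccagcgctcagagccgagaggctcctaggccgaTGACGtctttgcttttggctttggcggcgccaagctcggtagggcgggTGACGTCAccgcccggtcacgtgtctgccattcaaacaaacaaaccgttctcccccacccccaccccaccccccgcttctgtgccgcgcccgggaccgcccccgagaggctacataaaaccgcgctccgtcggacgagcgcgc
RefSeq promoters were matched for 8 of the 10 members, and Egr1, Ier2, Jund and Zfp36 are not printed. TGACG was found in 5 of the 8, against 17.8% of all 32851 promoters of this length. In Fos it began 129 and 66 bases before the start, in Fosb 60, in Junb 106 and in Atf3 7. Dusp1 was the single member with the full CRE, 143 bases before its start, which 1.55% of promoters hold. Jun alone held TGACATCA, 45 bases before its start, against 2.93% of promoters, and this motif was chosen after the sequence had been read. The AP-1 site TGANTCA, with N for any base, was in none of the 8 and in 6.75% of all promoters, TATAAA was in Fos alone and in 12.4%, and the CArG box of serum response factor was in Zfp36 alone and in 1.47%. These matches describe letters in the window, and sites further upstream were not searched. The Zfp36 window, 28379229 to 28379478, lies inside the gene, whose annotated exons merge into 1 from 28376784 to 28380253. The Jund window ends at 70697738, before the annotated gene start at 70698949.

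At 2 h most members stood higher than in either other library, in lymphocytes and myeloid cells alike. Fos, Junb, Egr1, Ier2, Dusp1 and Zfp36 were each highest at 2 h in 8 of 8 lineages and Jun in 6 of 8, whereas Fosb was highest in the naive library in 6. Over members and lineages, 62 of the 78 pairs that passed a filter on low counts were highest at 2 h, 79.5%, against 26.2% of the pairs of all genes. Ratios to the naive library differed with the intron length of a gene, as given below, and the share of all genes was not split by it.

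**Figure D1:**
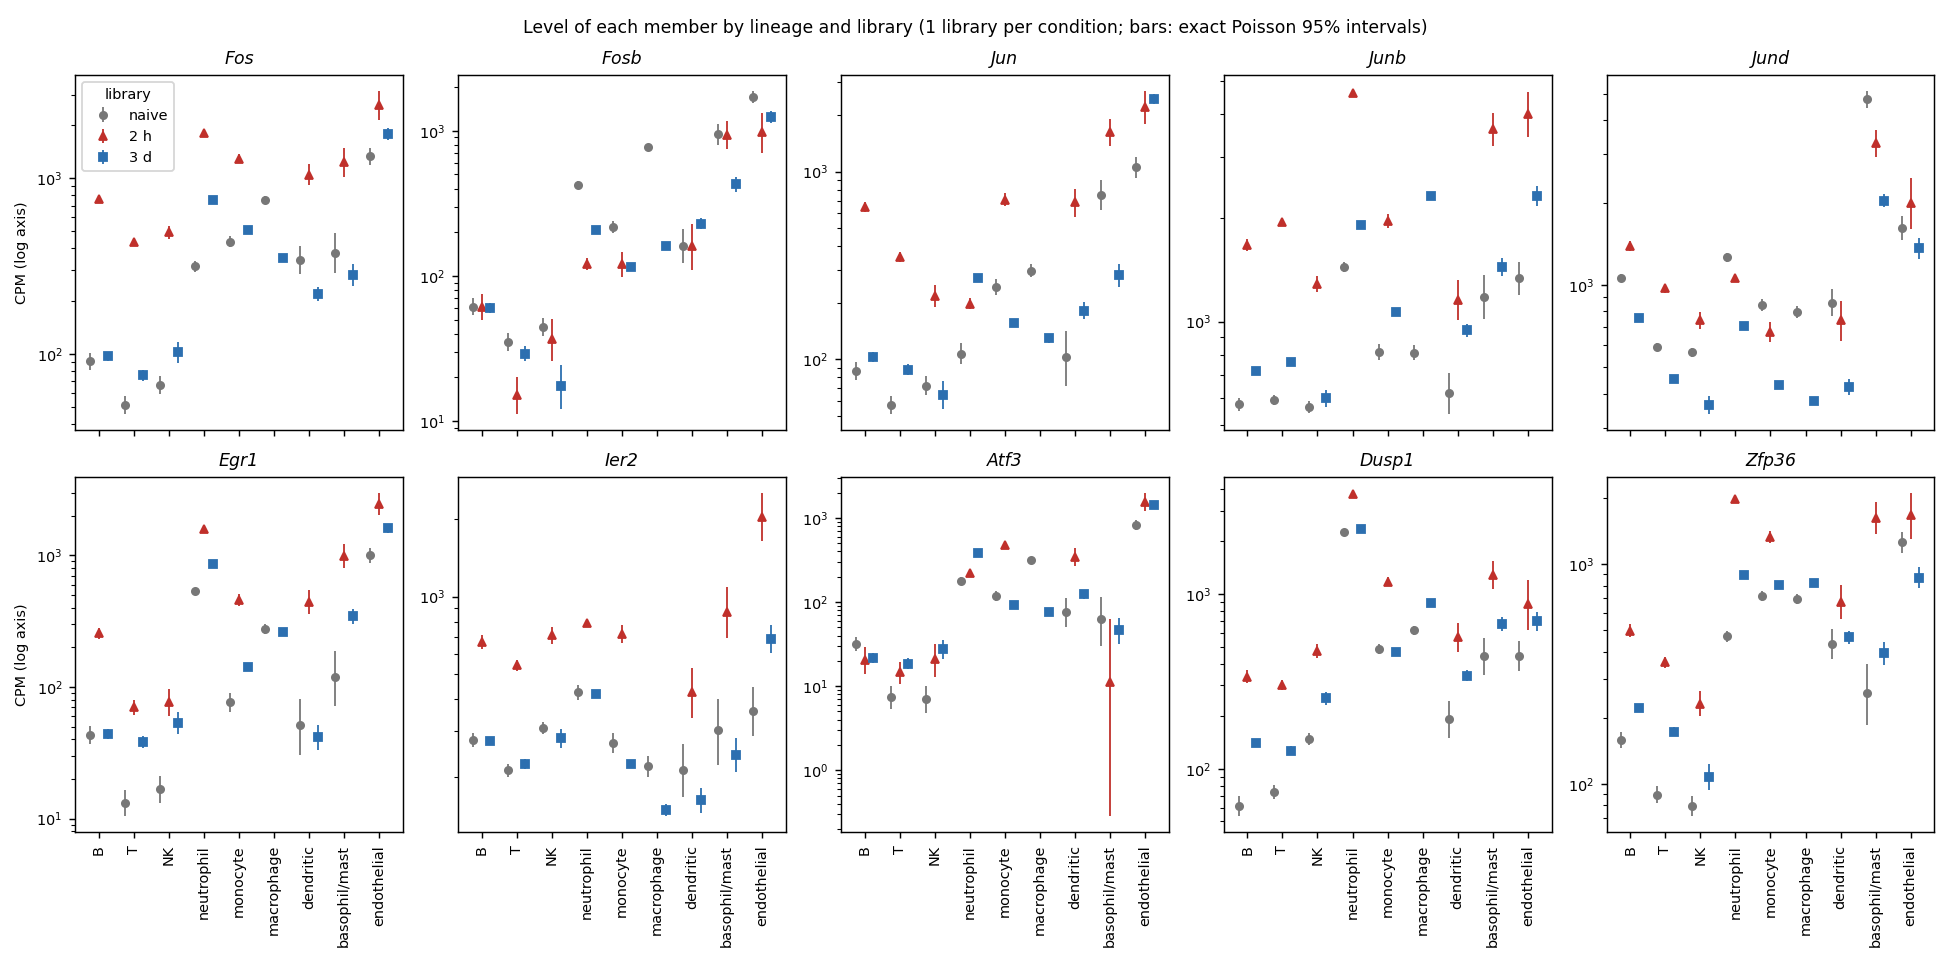
CPM (log axis) of each member in each lineage, with naive libraries as grey circles, 2 h as red triangles and 3 d as blue squares, and bars for exact Poisson 95% intervals. The red triangles lie above the other symbols in every lineage for Fos, Junb, Egr1, Ier2, Dusp1 and Zfp36, and macrophages have no 2 h symbol.

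A pair was counted as higher or lower where the CPM ratio of 2 libraries was at least 2. From naive to 2 h, 77 of 80 pairs passed the filter, 48 were higher at 2 h and 2 were lower, where 8.54% of the pairs of all genes were higher and 28.5% lower. Between 3 d and 2 h, 79 of 80 passed, 43 were higher at 2 h and 1 was lower, against 7.17% and 14.4%. From naive to 3 d, 88 of 90 passed, 9 were higher and 11 lower, against 5.77% and 18.2%. The median log2 ratio over the members was 1.40, 1.10 and 0.09 in the 3 comparisons, and the median over all genes ranged over lineages from -0.47 to -0.24, from -0.27 to -0.14 and from -0.19 to 0.13. The comparisons share libraries and are not independent of each other. By lineage, 7 members each were higher at 2 h than naive in B, T, NK and monocyte cells, beside 8.25%, 7.34%, 7.46% and 8.51% of all genes tested in them. Basophils or mast cells also had 7 beside 13.2%, dendritic cells 5 beside 9.34%, and neutrophils and endothelial cells 4 each beside 8.25% and 12.6%. Against 3 d, B, T, NK and basophil or mast cells each had 7 higher members beside 6.58%, 7.17%, 6.15% and 7.36%, monocytes 6 beside 7.41%, dendritic cells 5 beside 8.24%, neutrophils 3 beside 5.83% and endothelial cells 1 beside 9.8%. Neutrophils and endothelial cells thus held the fewest higher members in both comparisons. Counting error alone left 44 of the 48 and 37 of the 43 higher pairs with an interval wholly beyond 2-fold.

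**Figure D2:**
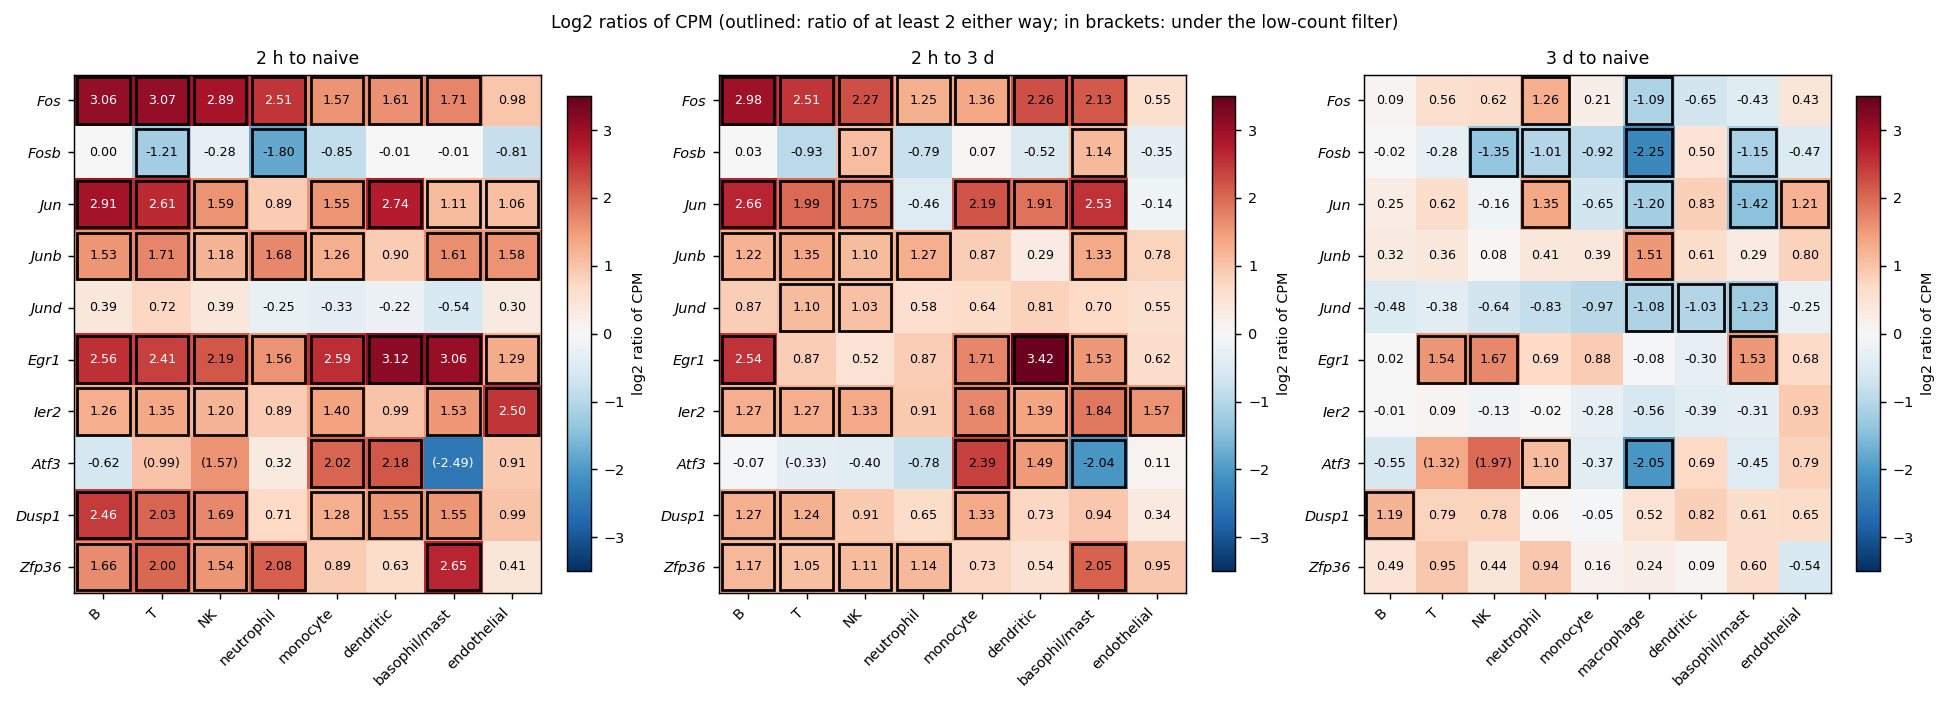
Log2 ratios of CPM for 2 h to naive, 2 h to 3 d and 3 d to naive, members in rows and lineages in columns, outlined where the ratio is at least 2 either way and in brackets where the pair was under the low-count filter. The first 2 panels hold 48 and 43 outlined higher pairs, and the panel of 3 d to naive 9 higher and 11 lower.

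The naive file was written by Cell Ranger 7.1.0 and both transplant files by 6.0.0, and these versions differ by default in whether reads in introns are counted, which the sources do not state here. Intronic bases here are those left after all annotated exons of a gene were merged. Between 2 h and naive, genes with no intronic bases had lineage medians of 0.39 to 0.75 on the log2 scale. Genes with at least 50000 had medians of -1.66 to -1.08. Between 2 h and 3 d, counted by the same version, the ranges in the same order were -0.30 to 0.30, -0.32 to 0.13 and -0.58 to -0.22. Jun, Jund, Ier2 and Zfp36 have no intronic bases by this count, and Fos, Fosb, Junb and Egr1 have 678 to 1934 intronic bases. Atf3 and Dusp1 have 45590 and 53228, counted over the whole annotated span of each gene. That span is 191170296 to 191218039 for Atf3 and 26505590 to 26562128 for Dusp1. Both lie on the minus strand, and the RefSeq starts used above are at 191183333 and 26508472. Most of each span thus lies upstream of that start. In comparisons with the naive library, software and condition cannot be told apart. The naive library also held 0 antibody tag counts, against 879206 at 2 h and 1248913 at 3 d, which cannot be told apart from condition either. The ratio of 2 h to 3 d is the one made within 1 version. Those libraries still differed in depth, at medians of 878 and 5716.5 UMIs per cell. The labels name both 5′ and 3′ kits, so that a difference in kit cannot be told apart from condition either.

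Of the FOS family, Fos was highest at 2 h in 8 of 8 lineages. In B cells it stood at 91.3 CPM in the naive library, 764 at 2 h and 97.0 at 3 d. In T cells the levels were 51.4, 433 and 76.0 CPM, and in NK cells 66.5, 493 and 102. The 2 h level lay far above both others in all 3 lymphocyte lineages, and of the 3 only B cells had overlapping naive and 3 d intervals. The log2 ratio of 2 h to 3 d was 2.98 (95% interval, 2.86 to 3.10) in B cells, 2.51 (2.38 to 2.64) in T cells and 2.27 (2.03 to 2.51) in NK cells.

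Myeloid cells started from higher Fos levels. Neutrophils held 316 CPM in the naive library, 1802 at 2 h and 756 at 3 d, monocytes 436, 1295 and 506, and dendritic cells 344, 1052 and 219.7. Basophils or mast cells held 379, 1234 and 281 CPM. The 2 h level was again the highest, and the 3 d level of neutrophils also lay above the naive one, by 1.26 on the log2 scale (1.15 to 1.37). Ratios of 2 h to 3 d were smaller in neutrophils and monocytes, 1.25 (1.21 to 1.30) and 1.36 (1.26 to 1.45), than in dendritic cells and basophils or mast cells, 2.26 (2.01 to 2.50) and 2.13 (1.78 to 2.48). Endothelial cells had the highest Fos level of any lineage in each library, 1333, 2624 and 1794 CPM, and the smallest ratio of 2 h to 3 d, 0.55 (0.25 to 0.84). At 2 h the order ran from endothelial cells through neutrophils to monocytes, basophils or mast cells and dendritic cells, whose neighbours had overlapping intervals, and then to B, NK and T cells, with overlap between the last pair.

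Fosb, a close relative of Fos that also pairs with JUN proteins, did not share this pattern. Its levels in B cells were 61.4, 61.5 and 60.4 CPM in the naive, 2 h and 3 d libraries. In neutrophils they were 421, 121 and 209 CPM, and in T cells 35.3, 15.3 and 29.1. The naive library was thus the highest in neutrophils and T cells, with 2 h to naive ratios of -1.80 (-1.96 to -1.64) and -1.21 (-1.70 to -0.75), the 2 lower pairs of that comparison. Monocytes held 217, 121 and 115 CPM and endothelial cells 1715, 975 and 1242, in both of which the naive interval lay above the other 2. Fosb was at least 2-fold higher at 2 h than at 3 d only in NK cells, 36.8 against 17.5 CPM, and in basophils or mast cells, 942 against 427 CPM, and the second ratio turned to -0.44 when cells were called one by one from markers.

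Of the JUN family, Jun followed Fos in lymphocytes and monocytes but not in neutrophils or endothelial cells. In B cells its level was 86.5 CPM in the naive library, 648 at 2 h and 103 at 3 d, and in T cells 57.1, 349 and 87.7. Monocytes held 243, 709 and 155 CPM, and dendritic cells 102, 684 and 182. In these lineages the 2 h level stood apart from both others, with ratios to 3 d of 2.66 (2.53 to 2.78), 1.99 (1.86 to 2.12), 2.19 (2.06 to 2.32) and 1.91 (1.62 to 2.20). In neutrophils, by contrast, the levels were 107, 198 and 272 CPM, and the ratio of 2 h to 3 d was -0.46 (-0.58 to -0.35). Endothelial cells held 1055, 2206 and 2433 CPM, and the ratio, -0.14 (-0.46 to 0.17), had an interval that spanned 0.

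Junb, an AP-1 subunit with weaker activity than JUN on many promoters, was higher at 2 h by similar factors over most lineages. Its levels were 577, 1667 and 718 CPM in B cells, 594, 1944 and 764 in T cells and 1437, 4605 and 1907 in neutrophils. The ratios of 2 h to 3 d in these 3 lineages lay between 1.22 (1.15 to 1.28) and 1.35 (1.30 to 1.40). The smallest was that of dendritic cells, 1156 against 943 CPM, at 0.29 (0.09 to 0.49). Jund, the JUN protein that many resting cells express, gave no pair at least 2-fold apart between 2 h and naive. Its 2 h to naive ratios ran from -0.54 in basophils or mast cells to 0.72 in T cells. It was lower at 3 d than at 2 h in every lineage, by a ratio of 2 h to 3 d from 0.55 in endothelial cells to 1.10 in T cells, and it was highest in basophils or mast cells, at 4782, 3299 and 2035 CPM.

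Egr1, a zinc-finger factor that MAP kinase signals induce, was at least 2-fold higher at 2 h than in the naive library in 8 of 8 lineages as counted. The T and NK calls were lost when the neutrophil share was subtracted, at 0.66 and 0.62 on the log2 scale, and the neutrophil call, at 0.34, when the members were kept for clustering. In neutrophils it stood at 536, 1584 and 864 CPM, in monocytes at 76.6, 460.4 and 141, and in B cells at 43.2, 255 and 43.9. The naive and 3 d levels of B cells could not be told apart, while in neutrophils and monocytes the 3 d level lay between the others. Dendritic cells held 51.2, 446 and 41.7 CPM, from 18, 86 and 84 UMIs, and had the largest ratio of 2 h to 3 d of any member and lineage, 3.42 (2.97 to 3.87). In T and NK cells the levels were low, 13.2, 69.9 and 38.3 CPM and 16.9, 76.6 and 53.6, and the ratios of 2 h to 3 d were 0.87 (0.62 to 1.12) and 0.52 (0.07 to 0.95). Of their 2 h levels, 54.0 and 53.3 CPM equalled the share that neutrophil RNA would give at the S100a8 and S100a9 levels of these cells.

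Ier2, a short nuclear protein gene without introns, was highest at 2 h in lymphocytes and myeloid cells alike. Its levels were 279, 669 and 277 CPM in B cells, 309, 709 and 283 in NK cells and 272, 715 and 224 in monocytes. In these lineages the naive and 3 d levels lay within 1.5-fold of each other and the 2 h level above both. Its ratios of 2 h to 3 d spanned 0.91 in neutrophils to 1.84 in basophils or mast cells, and it was the one member at least 2-fold higher at 2 h than at 3 d in endothelial cells, 2044 against 686 CPM, at 1.57 (1.21 to 1.93).

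Atf3, a stress-induced member of the ATF and CREB family that also pairs with JUN proteins, differed in direction between lineages. In monocytes it stood at 118, 482 and 91.8 CPM, with a ratio of 2 h to 3 d of 2.39 (2.23 to 2.55). In dendritic cells the levels were 76.8, 347 and 124 CPM. In neutrophils they were 179.8, 224 and 384 CPM, and the ratio of 2 h to 3 d was -0.78 (-0.88 to -0.67). Monocytes and dendritic cells were therefore high at 2 h and neutrophils at 3 d. The dendritic ratios turned to -1.35 against naive and -1.24 against 3 d when cells were called one by one from markers. T and NK cells held at most 18.4 and 27.6 CPM of Atf3, and basophils or mast cells 1 UMI at 2 h, 11.2 CPM (0.28 to 62.5).

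The feedback genes Dusp1 and Zfp36 were each highest at 2 h in 8 of 8 lineages. They were at least 2-fold higher than at 3 d in 3 and 5 of the 8. The Dusp1 calls in B and T cells and the Zfp36 calls in B, T and NK cells fell under 2-fold when the neutrophil share was subtracted. Dusp1 was highest in neutrophils, at 2281, 3721 and 2372 CPM, where the ratio of 2 h to 3 d was 0.65 (0.62 to 0.68). In monocytes it stood at 487, 1178 and 469 CPM and in B cells at 61.4, 337 and 140.2. The 3 d level of monocytes was thus back at the naive level within counting error, and that of B cells was not, with a ratio of 3 d to naive of 1.19 (0.98 to 1.40). Zfp36 stood at 469, 1984 and 898 CPM in neutrophils, 718, 1331 and 804 in monocytes and 259, 1627 and 392 in basophils or mast cells. In each of these lineages the 2 h level was the highest, and the 3 d level lay above the naive one in neutrophils and monocytes, with overlapping intervals in basophils or mast cells. Its ratio of 2 h to 3 d was 1.14 (1.10 to 1.19) in neutrophils, 0.73 (0.64 to 0.82) in monocytes and 2.05 (1.75 to 2.35) in basophils or mast cells.

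Neutrophils at 2 h were made of 4 clusters that differed in their members. In the cluster led by Cxcl3 and Il1rn Fos stood at 1522 CPM and Egr1 at 2021, and in that led by Ccl4 and Ccl3 at 1238 and 2075. In the cluster led by Ngp, Camp and Ltf, genes of neutrophil granules, Fos was higher and Egr1 lower, at 2353 and 690.3 CPM. The cluster led by Scgb1a1, a gene of airway club cells, held 2217 and 1274 CPM. Fos and Egr1 thus ran in opposite order over the 2 h clusters. All 4 lay above the naive cluster, at 316 and 544 CPM, and above both 3 d clusters in Fos. At 3 d the cluster led by Tnf and Siglecf held 196 CPM of Fos against 810.2 in the larger one led by Retnlg, but 717 against 219.6 CPM of Jun and 1918 against 791 of Zfp36. The Siglecf cluster held 253 cells, and in the Retnlg cluster alone Jun lay within the 181 to 258 CPM of the 2 h clusters.

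**Figure D3:**
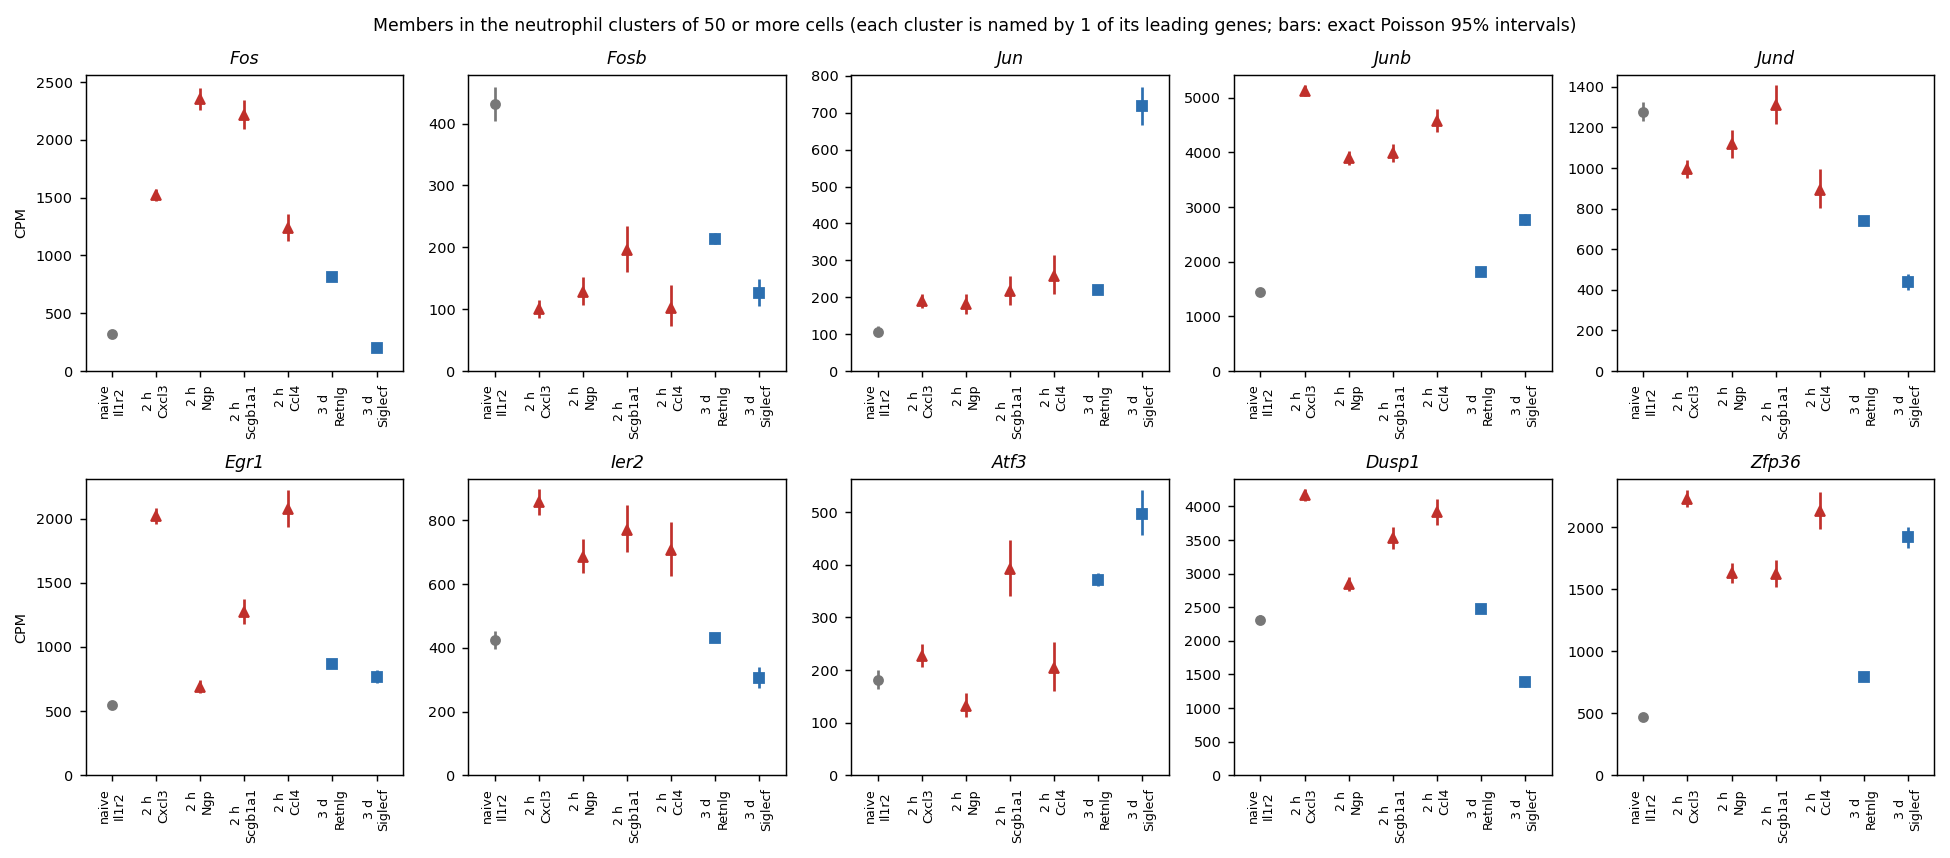
CPM of each member in the neutrophil clusters of at least 50 cells, 1 naive (grey circle), 4 at 2 h (red triangles) and 2 at 3 d (blue squares), each named by 1 of its leading genes, with exact Poisson 95% intervals. Fos is highest in the Ngp cluster, Egr1 in the Cxcl3 and Ccl4 clusters, and Jun in the Siglecf cluster at 3 d.

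Macrophages, compared between naive and 3 d alone, were the lineage with the most lower pairs, 5 of 10, with 1 higher, where 22.9% and 11.1% of all genes tested there were lower and higher. Fosb stood at 769.5 CPM in the naive library and 162 at 3 d, Atf3 at 316 and 76.6, Fos at 753 and 354, Jun at 297 and 129, and Jund at 795 and 375. Junb went the other way, from 813 to 2312 CPM, at 1.51 (1.44 to 1.58). The clusters behind these sums were not alike. The naive macrophages lay mainly in a cluster of 102 cells led by Plet1 and Ear1, and the 3 d ones in a cluster of 639 cells led by Saa3 and Arg1 and one of 167 led by C1qa and C1qb. Fos stood at 635 CPM in the naive cluster, 200.2 in the Arg1 cluster and 740.2 in the C1q cluster. Against the naive cluster, Fos was therefore lower at 3 d in the Arg1 cluster and not in the C1q cluster. The C1q cluster also held 7 naive cells, whose own levels are not given, so that it was not compared with its naive counterpart. Fosb stood at 709, 98.0 and 324 CPM and Junb at 765, 2387 and 2123 CPM in the 3 clusters, the same side of the naive level in both. The naive cluster held 389 of the 608 naive Jun UMIs, and the rest came from the 7 naive cells of the C1q cluster. In the naive cluster Jun stood at 196 CPM against 129 in the 3 d macrophages and Fos at 635 against 354, each less than 2-fold apart. The lower calls of Fos and Jun thus depended on those 7 cells. Differences between kinds of macrophage and between conditions cannot be told apart here.

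**Figure D4:**
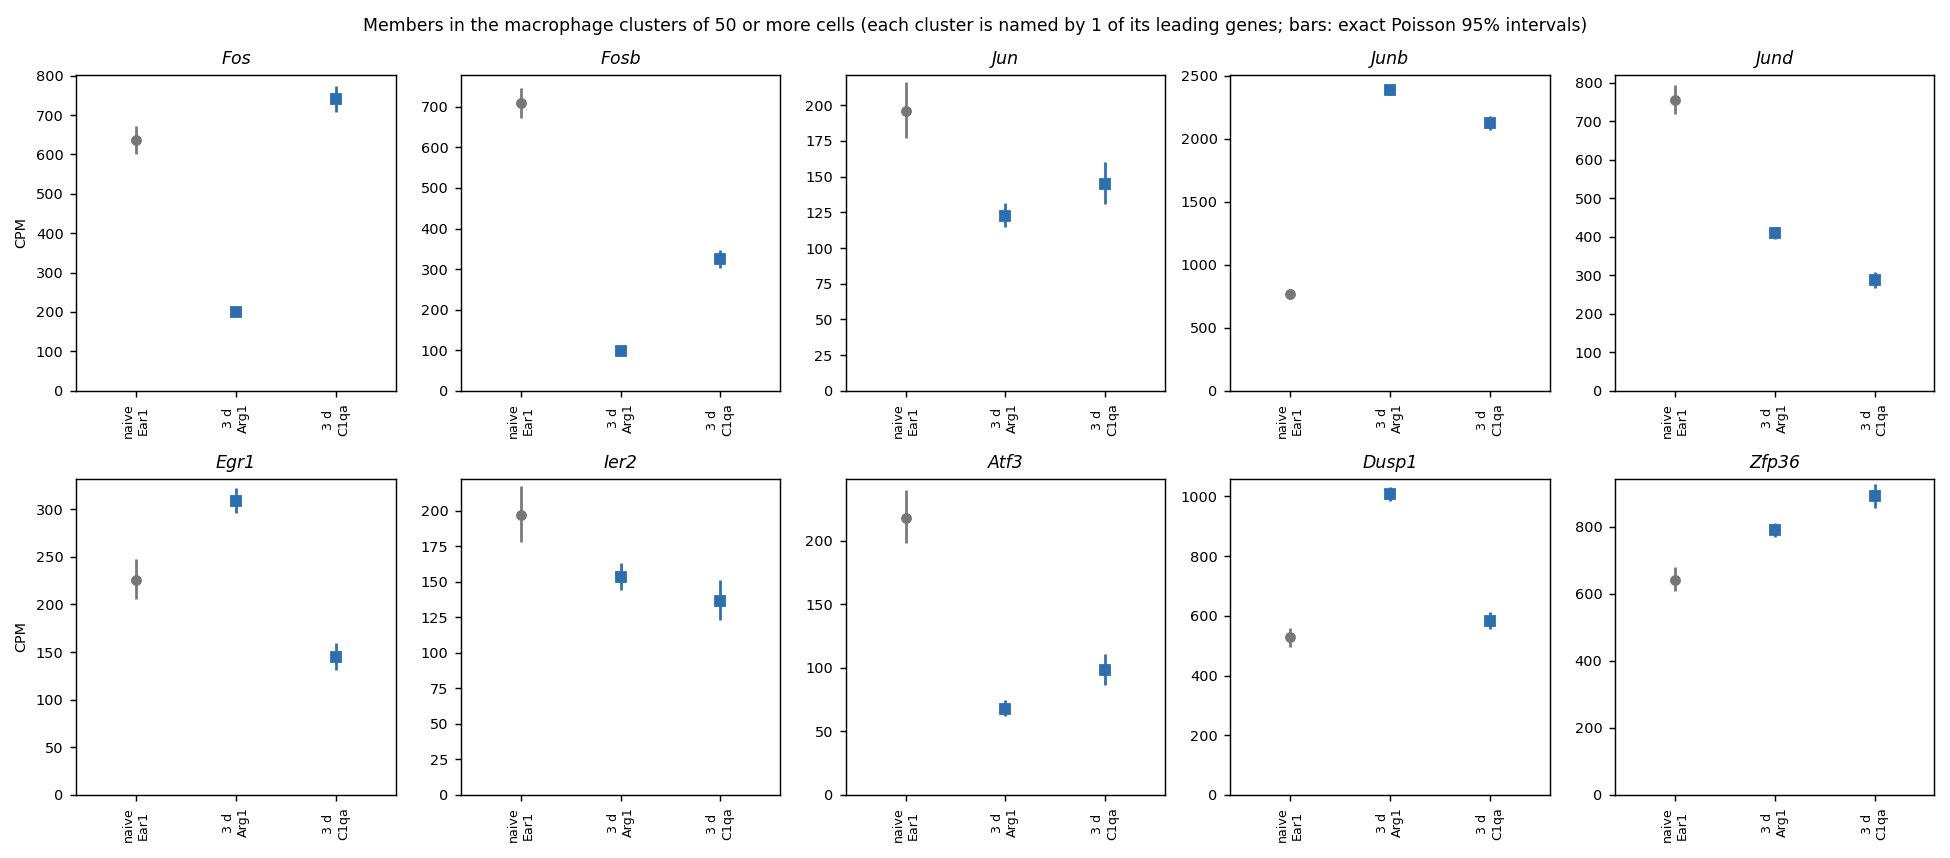
CPM of each member in the macrophage clusters of at least 50 cells, the naive cluster as a grey circle and the Arg1 and C1qa clusters of 3 d as blue squares, with exact Poisson 95% intervals. Junb is higher in both 3 d clusters than in the naive one, and Fos is lower in the Arg1 cluster alone.

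At 3 d monocytes and T cells each held 2 clusters, and several members differed between them. Monocytes led by Cd300e, Ace and Treml4 had 245 CPM of Egr1, 295 of Jun and 167 of Atf3, against 113, 115 and 70.9 CPM in those led by Chil3 and Ccr2, while Fos was close, at 465 and 516 CPM. T cells led by Ccl5 and Cd8a had 82.1 CPM of Egr1 and 99.7 of Fos, against 15.8 and 62.1 in those led by Lef1. These 3 d clusters are of 1 library and share its depth and handling. At 2 h the T cells led by Tnfrsf4 and Ctla4 had more Jun than those led by Tcf7 and Il7r, 452 against 288 CPM. They had less Egr1 as counted, 42.9 against 86.2 CPM. Over all T cells at 2 h the neutrophil share of Egr1 was 54.0 of 69.9 CPM. Its part in the difference between these clusters was not tested.

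Lymphocytes carried transcripts of neutrophils. S100a8 and S100a9 together, genes typical of neutrophils, stood at 199, 1516 and 1548 CPM in B cells of the naive, 2 h and 3 d libraries, at 606, 1269.7 and 1146 in T cells and at 309, 1252 and 3428 in NK cells. These were 0.190% to 0.578% of the neutrophil level in the naive library, 3.36% to 4.07% at 2 h and 0.884% to 2.64% at 3 d. Taking that share of the neutrophil level of each member from the lymphocyte level, an alternative added after the data were seen, lowered Egr1 most in T and NK cells. In B cells Dusp1 and Atf3 were lowered more than Egr1, with 2 h to naive ratios from 2.46 to 1.70, -0.62 to -1.46 and 2.56 to 2.18. In T cells the 2 h level of Egr1 went from 69.9 to 15.9 CPM, and its ratio of 2 h to naive from 2.41 to 0.66 and of 2 h to 3 d from 0.87 to -0.94. In NK cells the same ratios went from 2.19 to 0.62 and from 0.52 to -0.40. Dusp1 in B cells went from 1.27 to 0.73 and in T cells from 1.24 to 0.71 for 2 h to 3 d. Zfp36 fell under 2-fold in that comparison in all 3 lineages, from 1.17 to 0.99 in B, 1.05 to 0.82 in T and 1.11 to 0.98 in NK cells. Over all lineages the count of higher pairs for 2 h to 3 d went from 43 to 37, and the lymphocyte pairs do not account for the whole change. Monocytes also carried S100a8 and S100a9, at 781, 4558 and 1499 CPM in the naive, 2 h and 3 d libraries. Their ratios after subtraction are not given here. Fos was hardly touched, at 2.98 and 2.97 in B cells and 2.51 and 2.42 in T cells, and so was Jun, at 2.66 and 2.69 in B cells and 1.99 and 2.00 in T cells.

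**Figure D5:**
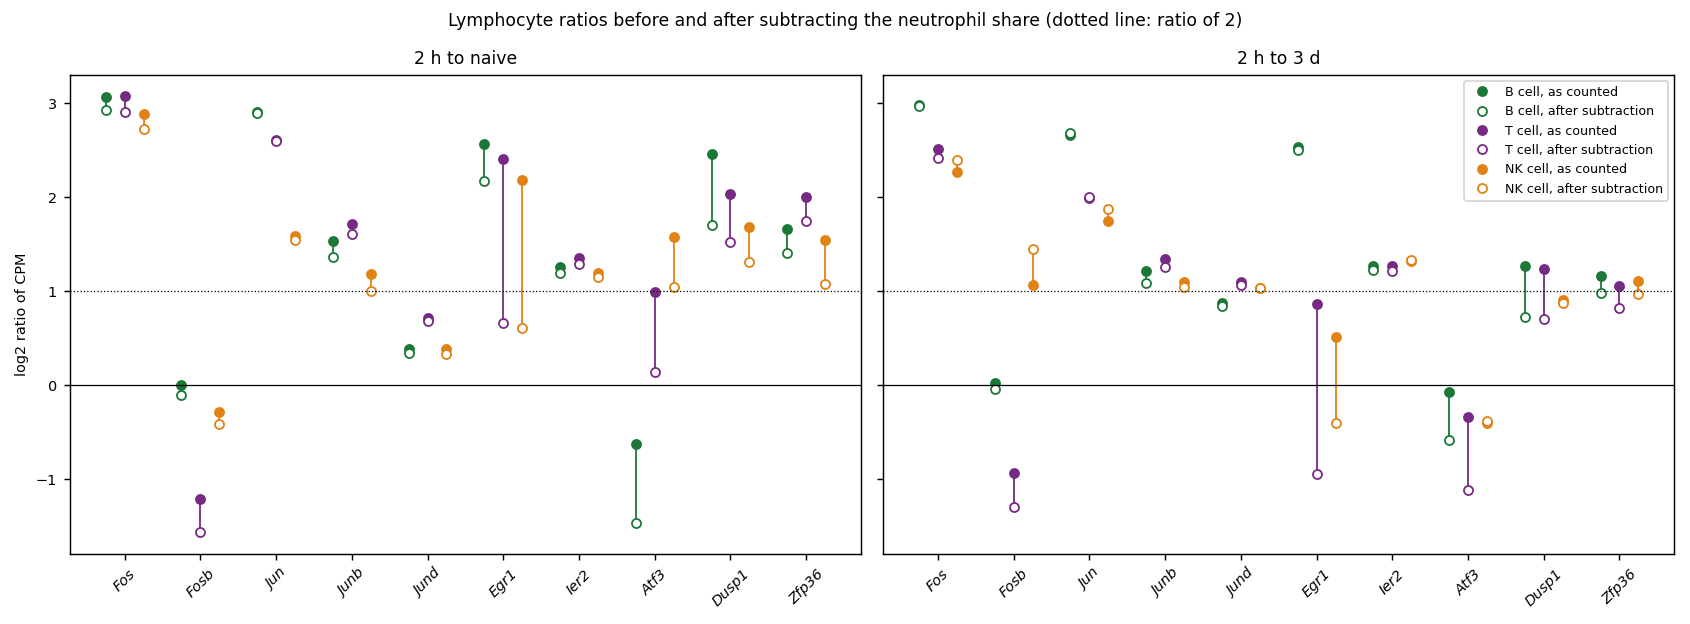
Log2 ratios of CPM in B, T and NK cells as counted (filled) and after the neutrophil share was subtracted (open), for 2 h to naive and 2 h to 3 d, with a dotted line at a ratio of 2. The symbols lie closest together for Ier2, Jund, Jun and Fos, and for Egr1 in T and NK cells the open ones fall below the dotted line in both panels.

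The share of cells with at least 1 UMI of a member was compared after thinning each cell to 500 UMIs, since the libraries differ in depth. Fos was then found in 3.78%, 16.7% and 3.69% of B cells of the naive, 2 h and 3 d libraries, in 2.60%, 13.2% and 2.85% of T cells and in 14.9%, 41.8% and 22.7% of neutrophils. Without thinning the same shares were 18.4%, 22.1% and 22.1%, 20.3%, 21.4% and 28.4%, and 43.4%, 50.9% and 61.6%. The 2 h library stood out only once depth was equal. Junb was found in 47.0%, 81.2% and 51.4% of thinned neutrophils and 91.3%, 88.3% and 94.8% of unthinned ones. Thinning left out 343 neutrophils, 62 B cells, 41 NK cells, 14 T cells, 4 monocytes and 1 endothelial cell of the 2 h library. It left out no cell of these lineages in the naive and 3 d libraries. No lineage here is known to lack Fos or Junb, so a background share could not be read from one.

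Of 36 other immediate-early genes, tested in 231 pairs with lineages for 2 h to naive and 253 for 2 h to 3 d, 118 and 85 pairs were at least 2-fold higher at 2 h and 14 and 20 lower. These were 51.1% and 33.6% higher and 6.06% and 7.91% lower, beside 8.54% and 7.17% higher and 28.5% and 14.4% lower of the pairs of all genes, the background for each list that follows. Pim1, a kinase gene induced by cytokines, was higher at 2 h than at 3 d in 8 of 8 lineages, at 1415, 7733 and 1351 CPM in neutrophils and 215, 1212 and 277 in B cells. Btg1, an antiproliferative gene, was too, at 1094, 5939.7 and 1126 CPM in B cells. Klf2, a transcription factor of quiescent lymphocytes and endothelium, was higher in 6 of 8, with 524, 2170.0 and 649.5 CPM in NK cells. Nr4a2, an orphan nuclear receptor, went against the list and was lower at 2 h than at 3 d in 5 of the 6 lineages tested, with 107, 22.3 and 109.8 CPM in neutrophils. An immediate-early pattern was therefore not shared by every gene of that name, Fosb and Nr4a2 among them.

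Among 15 dimerization partners and relatives of AP-1, 15 of 61 pairs were higher and 12 lower for 2 h to naive, and 11 and 6 of 77 for 2 h to 3 d. That is 24.6% higher for 2 h to naive beside 8.54% of all genes, and 14.3% for 2 h to 3 d beside 7.17%, while the lower shares, 19.7% and 7.79%, were under the 28.5% and 14.4% of all genes. Batf, which pairs with JUN proteins in lymphocytes, was higher at 2 h than at 3 d in each of the 6 lineages tested, with 53.0, 155 and 48.0 CPM in T cells. Jdp2, a repressor that binds AP-1 sites, was higher in 2 of 7 lineages, monocytes among them at 75.4, 369.5 and 104 CPM. Mafk and Atf4 leaned lower at 2 h, with median ratios of -0.83 and -0.68 to 3 d over 8 lineages and 2 and 1 lower pairs.

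The 24 kinases and serum response or CRE factors that act upstream had 60 of 118 pairs lower and 4 higher for 2 h to naive, and 26 of 132 lower and 5 higher for 2 h to 3 d. The lower share was 50.8% beside 28.5% of all genes in the first comparison and 19.7%, nearer the 14.4% of all genes, in the second, which was counted by 1 version. The higher shares, 3.39% and 3.79%, were under the 8.54% and 7.17% of all genes. Mapk14, the gene of p38 alpha, was lower at 2 h than at 3 d in 6 of 7 lineages, at 173, 45.5 and 142 CPM in neutrophils. Creb1, the CRE-binding protein, and Mapk3, the gene of ERK1, were lower in 4 lineages each. Map3k8, a kinase upstream of ERK, was higher in 3 of 6, with 67.6, 148 and 53.5 CPM in monocytes. Genes with long introns were lower at 2 h as a class, as given above, and the part of that in these values was not tested.

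Of the 10 other MAP kinase phosphatases, 6 of 34 pairs were higher and 3 lower for 2 h to naive, and 6 and 4 of 43 for 2 h to 3 d. The higher shares were 17.6% and 14.0% beside 8.54% and 7.17% of all genes, and the lower ones 8.82% and 9.30% beside 28.5% and 14.4%. Dusp3 stood at 186, 513 and 227 CPM in monocytes, and Dusp2 at 359, 153 and 256 CPM in NK cells. Dusp16 had no pair at least 2-fold apart between 2 h and 3 d and Dusp5 had 1, in basophils or mast cells at 315, 1200.5 and 306 CPM. The 13 genes of the ZFP36 family and of mRNA decay gave 8 higher and 16 lower of 79 pairs, and 5 and 2 of 85. Their higher shares, 10.1% and 5.88%, were near the 8.54% and 7.17% of all genes, and their lower shares, 20.3% and 2.35%, under the 28.5% and 14.4%. Zfp36l1, the nearest relative of Zfp36 among those named, stood at 468, 1027 and 582 CPM in B cells and had no pair 2-fold higher at 2 h than at 3 d. Dcp2, Cnot7 and Cnot8 had median ratios of 0.66, 0.30 and -0.22.

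Among 11 mRNAs with AU-rich elements, which ZFP36 is known to bind, 22 of 32 pairs were higher at 2 h than naive and 0 lower, and 15 of 44 were higher and 4 lower for 2 h to 3 d. The higher shares were 68.8% and 34.1%, beside 8.54% and 7.17% of all genes, and the lower ones 0% and 9.09%, beside 28.5% and 14.4%. Cxcl2, a neutrophil chemokine, stood at 2215, 19932 and 4818 CPM in neutrophils and at 126, 3699 and 356 in monocytes. Ccl4 was higher at 2 h than at 3 d in 3 of 7 lineages, and Il1b in 0 of 8, with 6892, 10969.9 and 8400.5 CPM in neutrophils. Tnf stood at 84.1, 81.3 and 297 CPM in neutrophils, the one named cytokine highest there at 3 d. The counts of pairs above include lymphocyte pairs. Among these, Cxcl2 in B, T and NK cells at 2 h stood at 506 to 568 CPM, beside the neutrophil transcripts described above. S100a8 and S100a9 in these cells were at 3.36% to 4.07% of the neutrophil level. The part of neutrophil RNA in the Cxcl2 levels and in the counts was not tested.

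Across the 26 sums of a lineage and a library, 3452 genes that averaged 50 CPM or more were ranked by the Pearson correlation of log2(CPM + 10) with Fos, as a description, since these sums share 3 libraries and their depths. Zfp36 came first at 0.91, followed by Egr1 at 0.89, Midn at 0.88, Klf6 at 0.85 and Jun at 0.84. Of the other members, Junb ranked 6, Dusp1 18, Atf3 22, Ier2 40, Fosb 69 and Jund 299. The member least like Fos was thus Jund, and Midn and Klf6 were the genes outside the list among the first 5.

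Calls held unevenly when the processing was altered. Of the 48 pairs higher at 2 h than naive, 36 had a value under each alternative of lineage calling, filtering and scaling, and 21 of these stayed past 2-fold in all. Of the 43 pairs of 2 h to 3 d, 37 had a value under each and 24 stayed. Monocytes gave no value at clustering resolution 0.4, and dendritic cells none for 2 h to naive under 5% mitochondrial UMIs. Fos stayed past 2-fold in B, T, NK, neutrophil and basophil or mast cells in both comparisons, and in dendritic cells in the alternatives that gave a value. Its ratio of 2 h to 3 d in B cells was lowest, at 1.72, when the members and the list genes otherwise left out were kept for clustering. Egr1 in neutrophils, 1.56 for 2 h to naive, went to 0.34 under the same setting.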

How the data were processed

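Per the file headers, the deposited values are UMI counts per gene and cell, which the authors made with Cell Ranger against mm10 in the submitters' processing notes, in version 7.1.0 for naive lungs and 6.0.0 for both transplants. No source says whether intronic reads were included. The labels name both 5′ and 3′ kits, and the study's methods name a 3′ kit. From these counts, cells were kept with over 200 genes and under 6000, under 25000 UMIs and under 10% mitochondrial UMIs. They were clustered in Seurat 5.3.0 under R 4.3.3 (sctransform 0.4.2, 30 principal components, resolution 0.8), and clusters were named from marker lists. The members and the genes of the other immediate-early, AP-1 partner and heat-shock lists, 75 genes, were left out of clustering. Genes of the remaining lists were not left out, and some of them, such as Cxcl2 and Ccl3, were also markers used for naming. Cells of the endothelial cluster with more epithelial marker UMIs were set aside after the data were seen. Doublet calls (scanpy 1.11.5) numbered 40, 403 and 277 in the naive, 2 h and 3 d libraries, and were left in except in 1 alternative. UMIs were summed per lineage and library in Python 3.11.15, with exact Poisson and conditional intervals from scipy 1.17.1. Lineages needed 20 cells in each library, and pairs 30 UMIs over both libraries and a mean of 20 CPM. Intron lengths came from GENCODE vM21 and promoters from RefSeq. The script was tested on simulated counts.

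The members, gene lists and alternatives were chosen with earlier results of these data known. The genes named are all members, from each list the 4 with the largest absolute median log2 ratio of 2 h to 3 d over at least 3 lineages, and the 5 most like Fos. Of the alternatives, 16 were listed at the outset and 3 were added after the data were seen (the whole endothelial cluster, neutrophils without the Scgb1a1 cluster, and the subtraction of neutrophil RNA). Antibody tag counts were not used.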

Additional observations from a re-analysis of the deposited data

Results flagged for a closer look

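Atf3 went in opposite directions between 2 h and 3 d in monocytes and in basophils or mast cells, with log2 ratios of 2.39 and -2.04, a gap of 4.43. The difference was not tested, and the level of basophils or mast cells at 2 h rests on 1 UMI against 32 at 3 d. The interval of that ratio, -7.39 to 0.54, spanned 0.

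The transplant libraries also held antibody tag counts, 879206 at 2 h and 1248913 at 3 d over 277 tags, and the naive library had 0. They enter no comparison above.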

How the results depend on the processing

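Main counts of pairs at least 2-fold apart were 48 higher and 2 lower for 2 h to naive, 43 and 1 for 2 h to 3 d, and 9 and 11 for 3 d to naive. A ratio of at least 3 left 29 and 1, 18, and 1 and 2 of these, and a ratio of at least 1.5 moved the lower counts to 5, 4 and 17 and the higher count of 3 d to naive to 28. The lower counts of 2 h to naive and 2 h to 3 d became 4 and 4 with the members kept for clustering, 6 and 6 with cells called one by one from markers, 5 and 2 as a mean over cells, 1 and 2 under 5% mitochondrial UMIs, and 4 and 2 after the neutrophil share was subtracted. For 2 h to naive the lower count was 5 when CPM was taken over genes with short introns, 1 with median-ratio scaling and 1 on log2(CPM + 10). Short-intron CPM took the higher count of 2 h to naive from 48 to 34, and that of 2 h to 3 d from 43 to 39. Median-ratio scaling took these higher counts to 58 and 54. The lower count of 2 h to 3 d was 0 without doublets. For 3 d to naive, short-intron CPM gave 4 higher and 20 lower, under 5% mitochondrial UMIs gave 15 higher, and no cell filter gave 7 lower. The cause was not tested.

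Calling cells one by one reversed Atf3 in dendritic cells (-1.35 for 2 h to naive and -1.24 for 2 h to 3 d), Atf3 in basophils or mast cells (0.50 for 2 h to naive), Jun in basophils or mast cells (-0.29 for 2 h to naive and -0.10 for 2 h to 3 d), Jun in endothelial cells (-0.051 for 2 h to naive) and Fosb in basophils or mast cells (-0.44 for 2 h to 3 d). Thinning to 500 UMIs reversed Atf3 in NK cells (-0.35) and Jund in dendritic cells (0.34) for 3 d to naive. No paired analysis was possible because each condition has 1 library. For the same reason no library could be left out. Atf3 in T, NK and basophil or mast cells was under the low-count filter for 2 h to naive.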

Other observations

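Some heat-shock genes were higher at 2 h. Of 82 pairs of 14 such genes with lineages, 27 were at least 2-fold higher and 0 lower for 2 h to naive, and of 89, 20 were higher and 6 lower for 2 h to 3 d. The higher shares were 32.9% and 22.5%, beside 8.54% and 7.17% of the pairs of all genes. The lower shares were 0% and 6.74%, beside 28.5% and 14.4%. The median log2 ratio of the list for 2 h to naive was 0.84 in B cells but 0.06 in neutrophils and -0.15 in monocytes, where the medians of all genes were -0.36, -0.28 and -0.30. Dnajb1, a cochaperone of HSP70, was higher at 2 h than at 3 d in 8 of 8 lineages, at 33.0, 408 and 55.7 CPM in B cells of the naive, 2 h and 3 d libraries. Hspa1b, an inducible HSP70 gene, was higher in 4 of 7, with 46.8, 210.4 and 48.9 CPM in T cells. Hspa1a was higher in 4 and lower in 2 of 7, among them endothelial cells at 141, 116 and 635 CPM, and Dnaja1 was higher in 3 of 8.

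Of 7 neutrophil genes measured in all lineages, 22 of 34 pairs were higher and 7 lower for 2 h to naive. For 2 h to 3 d, 13 of 40 were higher and 11 lower. The higher shares were 64.7% and 32.5%, beside 8.54% and 7.17% of the pairs of all genes. Of the lower shares, 20.6% was under the 28.5% of all genes and 27.5% above the 14.4%. Mmp8 and Retnlg were higher at 2 h than at 3 d in 4 of 5 and 5 of 7 lineages, while S100a8 and Csf3r were lower in 4 of 8 and 3 of 7. In neutrophils S100a8 stood at 47775.5, 13960.1 and 53757 CPM. Of 5 red cell genes, 0 pairs were higher and 5 lower of 5 tested for 2 h to naive, beside 8.54% and 28.5% of all genes. For 2 h to 3 d, 0 could be tested.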
